A study of Mus musculus with 21 samples.

Results

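The genes of MHC class II antigen presentation were followed across 7 fractions of mouse bone marrow, from multipotent progenitors to erythroid and myeloid cells. The set held 7 listed genes: Cd74, H2-Aa, H2-Ab1, H2-Eb1, H2-DMa, H2-DMb1 and Ciita. A gene was taken from array probes whose RefSeq accession maps to its symbol, with the brightest probe standing for the gene. Probes were found for 6 of the 7 genes, and these 6 are among 14312 named genes that were tested. H2-Eb1, the beta chain of the I-E molecule, matched no probe and was not analysed here.

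All arrays came from C57BL/6 marrow, with no treatment or allele listed, with 3 arrays for each of the 7 fractions and 21 in all. The fractions were made to compare primary progenitors with a multipotent cell line used to study GATA and PU.1 factors. KLS cells were lineage-negative, c-Kit+ and Sca1+. The labels give the same 3 features for PreMegE, CFUe, PreGM and GMP and separate these by CD150, CD105 and Fc gamma receptors. PreMegE was CD150+, CD105- and receptor-negative, GMP was CD150- and receptor-positive, and CFUe and PreGM carry the same listed markers (negative for all of them). Ter119 cells were CD71+ and Ter119+, and Mac1Gr1 cells were Mac1+ and Gr1+, and neither label lists depletion of other lineages. The labels used here give no age, sex or number of animals, and nothing in them says that the 3 arrays came from separate animals, so each p-value measures the spread between these samples, which may be technical.

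MHC class II molecules are pairs of an alpha and a beta chain that show peptides from the endosomal pathway to CD4 T cells. The invariant chain, encoded by Cd74, escorts new pairs to the endosome and blocks their groove, cathepsins trim it, and H2-DM then exchanges the remaining fragment for peptide. CIITA is the coactivator that switches these genes on, through RFX, NF-Y and CREB factors bound to a shared X and Y box promoter module. Dendritic cells, B cells and macrophages are the classical carriers of the molecules.

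Letters of this module were looked for in the RefSeq promoter sequences, which run from 250 bases before to 50 bases after each listed start (build GRCm38.p6). Of the 7 genes, 4 had an entry: H2-Aa, H2-Eb1, H2-DMa and H2-DMb1. The stretch from position -110 to position -31, counted from the start, is printed below, on each gene's own strand, for the measured members with a Y box and for the H2-O pair, because these genes part ways in the fractions described later. Capitals mark the letters TGATTGG, the Y box that NF-Y binds, and AACNGATG, an X box form. Both patterns were chosen after these promoters had been read and were searched on both strands, and they did not overlap each other in the stretches printed.
H2-Aa: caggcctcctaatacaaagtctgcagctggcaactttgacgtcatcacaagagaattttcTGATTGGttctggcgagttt
H2-DMb1: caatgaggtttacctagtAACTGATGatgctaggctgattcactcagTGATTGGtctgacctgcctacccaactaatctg
H2-Oa: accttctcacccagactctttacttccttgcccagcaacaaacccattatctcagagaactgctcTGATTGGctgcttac
H2-Ob: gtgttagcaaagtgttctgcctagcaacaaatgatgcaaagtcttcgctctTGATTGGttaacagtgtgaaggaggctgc

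These stretches lie on chromosome 17, at chr17:34287854-34287933 for H2-Aa on the minus strand, and on the plus strand at chr17:34153081-34153160 for H2-DMb1, chr17:34092269-34092348 for H2-Oa and chr17:34238795-34238874 for H2-Ob. The Y box letters began at position -50 in H2-Aa, -63 in H2-DMb1, -45 in H2-Oa and -59 in H2-Ob. H2-Eb1 held them at -61 with the X box form at -89, so both patterns were found in H2-DMb1 and H2-Eb1. In H2-Aa, H2-Oa and H2-Ob the Y box letters were found without AACNGATG. That says only that the letters AACNGATG are not in those windows, because other X box forms were not searched for. TGATTGG was present in 7.82% of 32851 promoters, AACNGATG in 2.32% and both together in 0.186%. Neither of the windows listed for H2-DMa held TGATTGG, which says only that these letters are not in those windows.

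Levels are the processed signal on a log2 scale, set relative to its own array at the 75th percentile, so that 0 is the 75th percentile and each unit is a doubling. A difference was called at a Benjamini-Hochberg adjusted p under 0.05 over all 29527 probes tested and at least 2-fold, in one limma fit of all 21 arrays. Between 56.4% and 77.4% of spots were well above background on an array, and arrays of a fraction correlated at 0.977 to 0.993 over the probes tested. CFUe replicate 3 stood apart for several genes below, so the member results that rest on CFUe are given with and without it. The fit shares 1 spread over all fractions, so this array also widened the SE of comparisons without CFUe. In Ter119 vs KLS leaving it out took the SE from 0.45 to 0.26 for H2-Aa and from 0.29 to 0.16 for H2-DMb1. A pair of fractions that did not pass for such a gene may therefore still differ. Xist, the RNA of the inactive X chromosome, was at 4.91 and 5.09 on CFUe replicates 1 and 2 but at -4.47 on replicate 3, and PreGM split likewise (5.53, 5.61 and -6.71). Its means were -6.58 in KLS, -6.44 in PreMegE and -5.63 in Ter119, but 5.03 in GMP and 4.06 in Mac1Gr1. Within GMP vs KLS, Mac1Gr1 vs KLS and Ter119 vs Mac1Gr1 the fraction and the Xist level therefore cannot be told apart. The erythroid list had mean levels of 5.71 to 6.04 in Ter119, but the granulocyte list stood at 7.64 to 7.74 there, close to the 7.80 to 8.05 of Mac1Gr1. In bulk RNA, fewer cells of a type and less RNA per cell cannot be told apart.

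Expression of the core genes fell and rose again on both sides of the tree. Ciita, Cd74, H2-Aa and H2-Ab1 were present in KLS and PreGM, low in PreMegE, CFUe and GMP, and highest in Ter119 and Mac1Gr1. The height of the mature fractions over KLS depended on the scaling: Cd74 in Mac1Gr1 vs KLS was 1.86 ± 0.19 (SE) and 0.23 with spike-in scaling, and H2-Ab1 was 0.98 ± 0.22 and -0.65. In Ter119 vs KLS the spike-in values were 0.21 for Cd74, -0.09 for H2-Aa, -0.41 for H2-Ab1 and 1.03 for Ciita. The H2-DM genes had another shape: H2-DMa was high in the early progenitors and low in both mature fractions, and H2-DMb1 was low in CFUe alone.

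**Figure D1:**
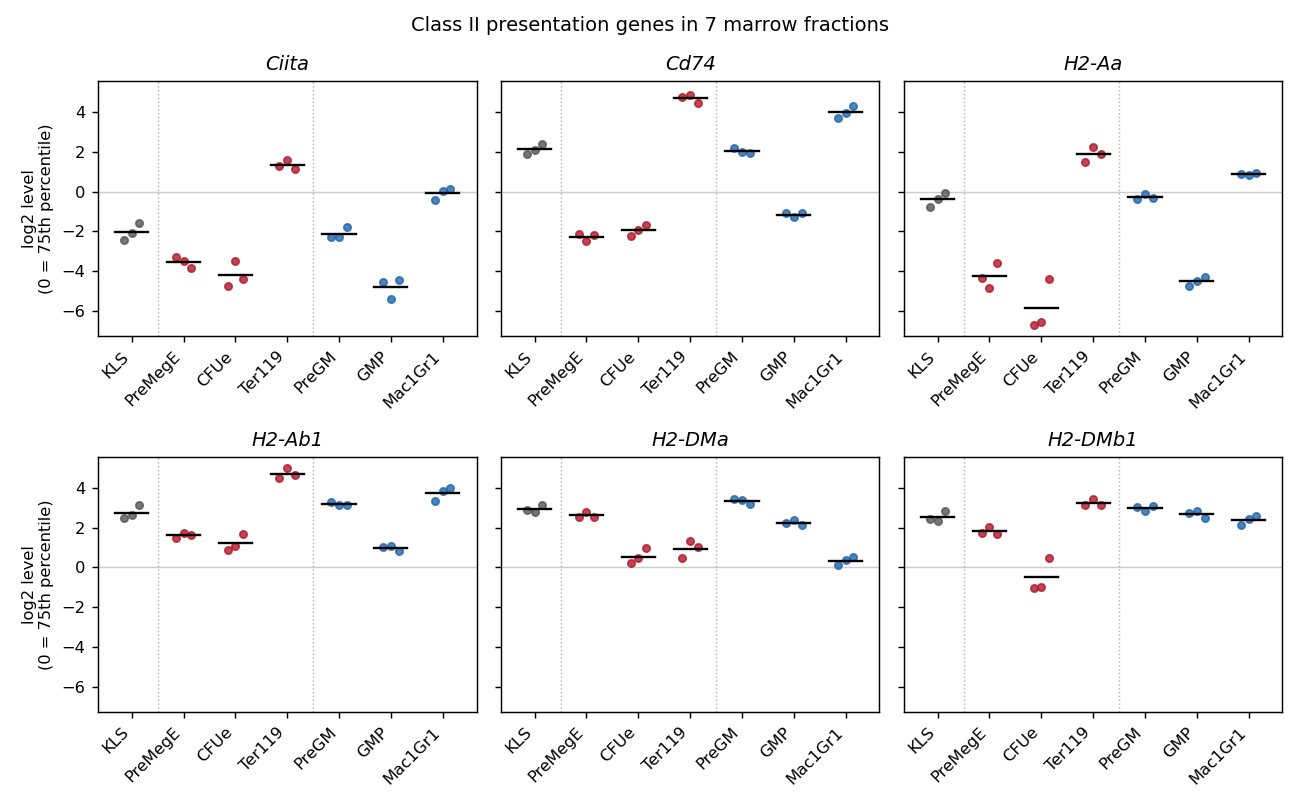
Level of 6 class II presentation genes on each array (points) with the fraction mean (bar), as log2 signal relative to the 75th percentile of the array; grey is KLS, red the erythroid and blue the myeloid side. Cd74 lies near 2 in KLS and PreGM, below -1 in PreMegE, CFUe and GMP, and above 3.6 in Ter119 and Mac1Gr1, while H2-DMa is lowest in CFUe, Ter119 and Mac1Gr1.

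Ciita, the coactivator, stood at -2.45, -2.07 and -1.60 on the KLS arrays and at -2.26, -2.29 and -1.78 on the PreGM arrays. It was at -3.29, -3.51 and -3.87 in PreMegE, at -4.76, -3.51 and -4.39 in CFUe, and at -4.57, -5.43 and -4.47 in GMP, where CFUe and GMP were well above background on 2 of 3 arrays each. The Ter119 arrays read 1.29, 1.60 and 1.15 and the Mac1Gr1 arrays -0.43, 0.03 and 0.14. The KLS and PreGM values overlapped, every PreMegE, CFUe and GMP array lay below them, and every Ter119 and Mac1Gr1 array lay above them. In the order Ter119, Mac1Gr1, KLS, PreGM, PreMegE, CFUe, GMP, the neighbours that did not differ beyond their spread were KLS and PreGM, PreMegE and CFUe, and CFUe and GMP.

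Cd74, the invariant chain, had 1.88, 2.09 and 2.42 in KLS and 2.17, 2.0 and 1.94 in PreGM. The levels were -2.13, -2.51 and -2.16 in PreMegE and -2.23, -1.94 and -1.68 in CFUe, with -1.07, -1.30 and -1.09 in GMP. Ter119 read 4.74, 4.87 and 4.48, and Mac1Gr1 read 3.68, 3.97 and 4.32. The groups did not overlap except KLS with PreGM and PreMegE with CFUe, and these were also the neighbours whose difference did not pass (0.10 ± 0.19, SE, adjusted p = 0.767, and 0.32 ± 0.19, SE, adjusted p = 0.165, limma).

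H2-Aa, the alpha chain of I-A, was at -0.75, -0.37 and -0.07 in KLS and at -0.35, -0.14 and -0.33 in PreGM. It fell to -4.34, -4.83 and -3.61 in PreMegE and to -4.76, -4.50 and -4.29 in GMP. The CFUe arrays gave -6.70, -6.54 and -4.38, with replicate 3 alone well above background, so CFUe replicate 3 lay inside the PreMegE range. The Ter119 arrays reached 1.5, 2.24 and 1.87, and the Mac1Gr1 arrays reached 0.88, 0.86 and 0.94. Ter119 and Mac1Gr1 did not differ by the test (0.98 ± 0.45, SE, adjusted p = 0.064, limma), nor did PreGM and KLS, or PreMegE and GMP. The Ter119 and Mac1Gr1 arrays did not overlap, and the other H2-Aa probe differed there (0.77 ± 0.29, SE, adjusted p = 0.0275, limma), under 2-fold.

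H2-Ab1, the beta chain of I-A, was also lowest in PreMegE, CFUe and GMP. Its mean was highest in Ter119 at 4.69 ± 0.26, followed by Mac1Gr1 at 3.73 ± 0.33, PreGM at 3.19 ± 0.08 and KLS at 2.75 ± 0.35 (SD, n = 3). PreMegE had 1.61 ± 0.15, CFUe 1.21 ± 0.43 and GMP 0.96 ± 0.14. The successive differences of these last 3 fractions (0.40 and 0.24) did not pass the test.

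H2-DMa, the alpha chain of the peptide exchanger, read 2.86, 2.80 and 3.16 in KLS, 3.42, 3.39 and 3.21 in PreGM, 2.52, 2.79 and 2.51 in PreMegE and 2.23, 2.37 and 2.11 in GMP. These 12 arrays all lay above those of the other 3 fractions. CFUe had 0.20, 0.47 and 0.96, Ter119 had 0.48, 1.32 and 1.03, and Mac1Gr1 had 0.10, 0.38 and 0.54. Those 3 low fractions overlapped, and the only neighbours in the order that differed were GMP and Ter119 (1.29 ± 0.21, SE, adjusted p = 2.71e-05, limma). The fractions richest in Cd74 and Ciita were therefore among the poorest in H2-DMa.

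H2-DMb1, the beta chain of the same exchanger, was between 1.69 and 3.46 on every array outside CFUe. The CFUe arrays read -1.02, -0.98 and 0.48, all below that range, with replicate 3 nearest to it. Of its 6 neighbouring pairs only PreMegE and CFUe differed by the test, by 2.34 ± 0.29 (SE, adjusted p = 4e-06, limma). The SE of every pair takes in the spread of the CFUe arrays, so smaller differences elsewhere may have been missed.

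**Figure D2:**
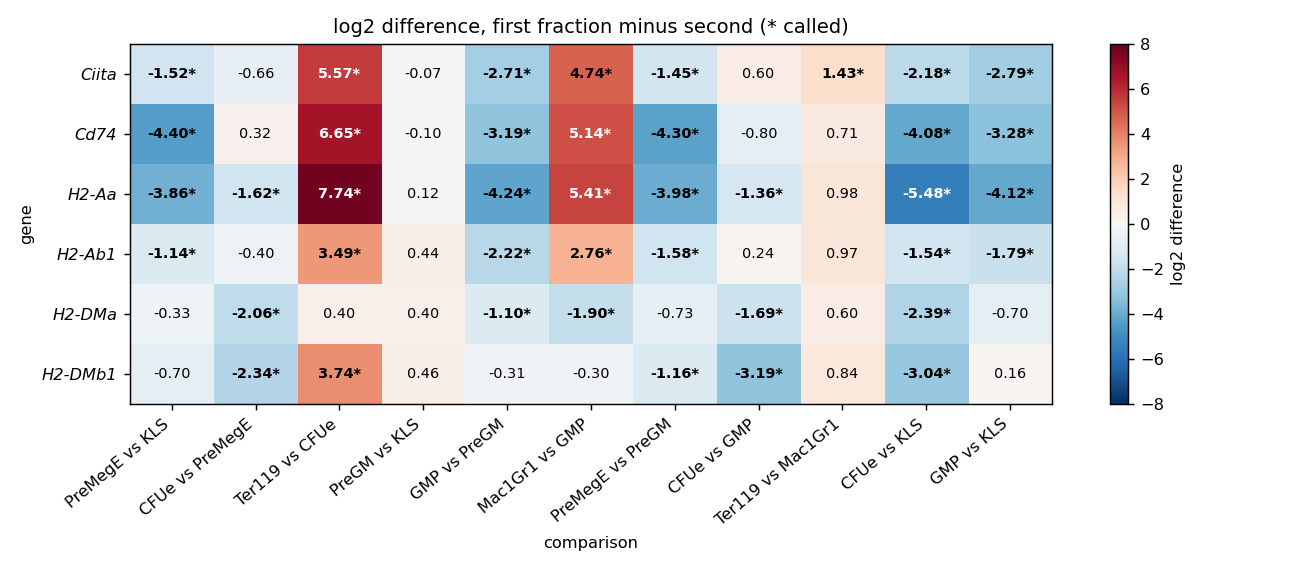
Difference in log2 level for each gene (rows) in 11 comparisons (columns), first fraction minus second; bold values with a star are called at an adjusted p under 0.05 and at least 2-fold. Cd74, H2-Aa, H2-Ab1 and Ciita share their direction at the terminal steps, and the PreGM vs KLS column holds no call. In Mac1Gr1 vs GMP H2-DMa is called lower where those 4 genes are called higher.

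The first step toward the erythroid side took the core genes down, and the first step toward the myeloid side did not. In PreMegE vs KLS, 4 of 6 members were called lower and none higher, against 8.86% of all probes tested called lower. Cd74 fell by 4.4 ± 0.19 (SE, 21.1-fold, adjusted p = 4.39e-11, limma), H2-Aa by 3.86 ± 0.45, Ciita by 1.52 ± 0.32 and H2-Ab1 by 1.14 ± 0.22. H2-DMa differed by -0.33 ± 0.21 and H2-DMb1 by -0.70 ± 0.29, neither called. The H2-Ab1 call was lost without KLS replicate 3 (-0.95) and with the slide as a fixed block (-0.99, adjusted p = 0.0592), and the Ciita call was lost after normexp background correction (-0.74, under 2-fold).

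In PreGM vs KLS, none of the 6 members was called by limma, at an unadjusted p under 0.05 none passed either, and each alternative setting run also gave 0 calls, while 8.63% of all probes were called in either direction. The differences ran from -0.10 ± 0.19 for Cd74 to 0.46 ± 0.29 for H2-DMb1 (SE). Set directly against each other, PreMegE vs PreGM had 5 of 6 members lower (6.23% of all probes lower), with differences of -4.30 ± 0.19 for Cd74, -3.98 ± 0.45 for H2-Aa, -1.58 ± 0.22 for H2-Ab1, -1.45 ± 0.32 for Ciita and -1.16 ± 0.29 for H2-DMb1 (SE). H2-DMa was at -0.73 ± 0.21, under 2-fold. On the 2 slides that carried both fractions Cd74 differed by -4.68 and -4.10 and H2-Aa by -4.47 and -3.27. The H2-DMb1 call was lost with the slide as a fixed block (-0.94, adjusted p = 0.0603), and the Ciita call after normexp (-0.79).

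Of 11 macrophage or monocyte markers, all 11 were called lower in PreMegE vs KLS, beside 8.86% of all probes lower. For PreGM vs KLS 9 were lower and 2 higher, beside 6.52% and 2.11% of all probes. The list had mean levels of 0.09 to 1.44 in KLS with all 11 genes well above background on every array, -4.80 to -3.77 in PreMegE and -3.06 to -2.76 in PreGM. C1qc, a complement gene of tissue macrophages, read 3.49, 2.56 and 2.03 in KLS and -3.89, -4.47 and -4.24 in PreGM. Csf1r, the receptor for macrophage colony-stimulating factor, went the other way, from a KLS mean of 0.49 to 2.51 in PreGM, as did the chemokine receptor Ccr2, from -3.37 to 0.69. The macrophage list mean was -2.19 to -1.73 in GMP, and the class II mean was 1.49 to 1.55 in PreGM. In KLS replicates 1, 2 and 3 the member mean was 1.07, 1.24 and 1.65 and the macrophage list mean 1.44, 0.72 and 0.09. These 3 arrays are too few to relate the lists to each other. The part of such cells in PreMegE vs KLS was not tested.

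**Figure D3:**
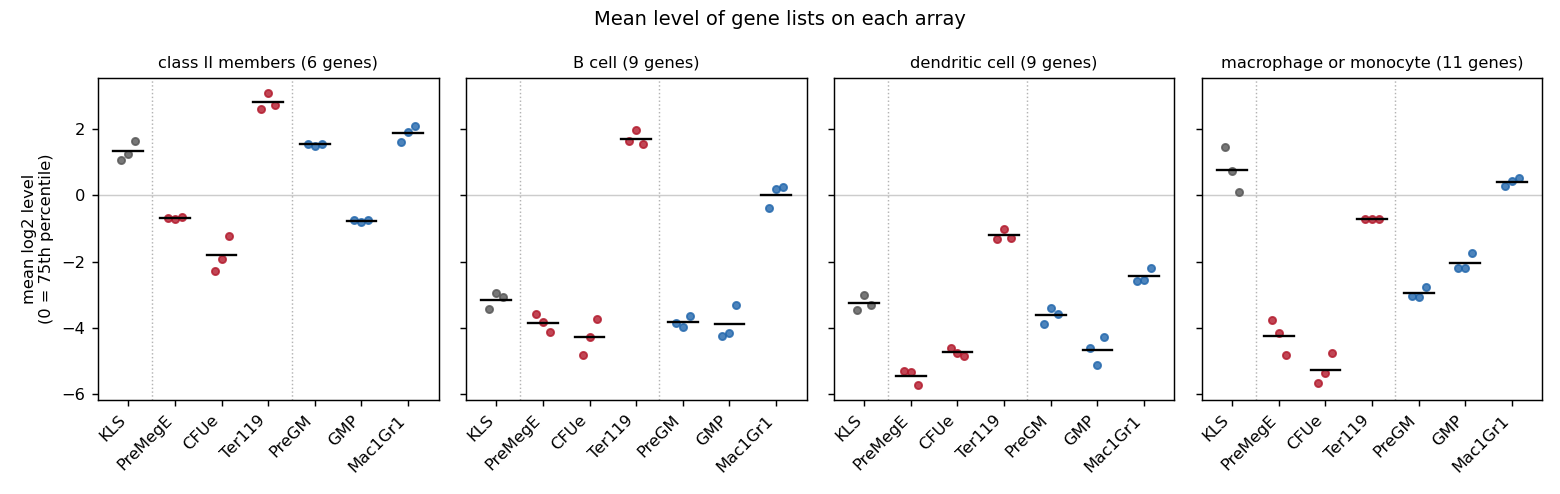
Mean log2 level on each array of the 6 class II genes and of B cell, dendritic cell and macrophage or monocyte marker lists, by fraction, with the fraction mean as a bar. PreGM has a class II mean of 1.49 to 1.55 beside 1.07 to 1.65 in KLS while its macrophage list lies at -3.06 to -2.76, and the B cell list is far higher in Ter119 (1.54 to 1.96) and Mac1Gr1 (-0.39 to 0.24) than in any other fraction.

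The second step brought the myeloid side down as well. In GMP vs PreGM, 5 of 6 members were called lower, against 6.36% of all probes. H2-Aa fell by 4.24 ± 0.45 (SE, 18.9-fold, adjusted p = 2.29e-06, limma), Cd74 by 3.19 ± 0.19, Ciita by 2.71 ± 0.32, H2-Ab1 by 2.22 ± 0.22 and H2-DMa by 1.1 ± 0.21. H2-DMb1 was at -0.31 ± 0.29 (adjusted p = 0.502), and its GMP and PreGM arrays met at 2.85. The H2-DMa call was lost with the slide as a fixed block (-0.95) and with spike-in scaling (-0.09), a scaling that moved the median probe of this comparison by 1.02. The B cell list was alike in the pair (-3.97 to -3.64 in PreGM and -4.23 to -3.30 in GMP), the macrophage list was higher in GMP, and the dendritic cell list was -3.87 to -3.39 in PreGM and -5.11 to -4.28 in GMP. Of the 8 dendritic genes tested, 3 were called lower and none higher, beside 6.36% of all probes lower. Itgax, the CD11c integrin, went from -0.75, -0.69 and -0.29 to -3.98, -3.59 and -4.0. Flt3, a receptor of early lymphoid and dendritic progenitors, had means of 0.77 and -2.74. Siglech, Cd209a and Zbtb46 were not well above background on any PreGM array. Zbtb46 had a higher mean in GMP (-4.68, well above background on 2 of 3 arrays) than in PreGM (-6.4). The part of these cells in the fall was not tested.

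The erythroid second step took down both H2-DM genes and H2-Aa. In CFUe vs PreMegE, 3 of 6 were called lower (14.7% of all probes lower): H2-DMb1 by 2.34 ± 0.29 (SE, adjusted p = 4e-06, limma), H2-DMa by 2.06 ± 0.21 and H2-Aa by 1.62 ± 0.45. Without CFUe replicate 3 these were -2.83, -2.27 and -2.36. Cd74 was at 0.32 ± 0.19, H2-Ab1 at -0.40 ± 0.22 and Ciita at -0.66 ± 0.32, none called. Another H2-Ab1 probe was called there (-1.14 ± 0.31, adjusted p = 0.00514). H2-Aa overlapped between the groups, and its call was lost after normexp (-0.31), with only the 2 fractions fitted (adjusted p = 0.081) and with a term for low Xist (-0.90). The other H2-Aa probe was not well above background on any array of CFUe, and its bound was 1.23-fold.

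The second step differed between lineages for all 6 members, where 34.3% of all probes did so at an adjusted p under 0.05. The erythroid minus the myeloid change was 3.51 ± 0.26 for Cd74 (SE, adjusted p = 3.9e-08, limma), and it was above 0 for H2-Aa (2.63), H2-Ab1 (1.82) and Ciita (2.05). With spike-in scaling it was 1.98 for Cd74, and it did not pass for H2-Aa (1.1, adjusted p = 0.0934), H2-Ab1 (0.29, adjusted p = 0.492) or Ciita (0.52, adjusted p = 0.35). The difference was below 0 for H2-DMb1 (-2.03 ± 0.41) and H2-DMa (-0.96 ± 0.29), at -3.56 and -2.49 with spike-in scaling. All 6 passed without CFUe replicate 3, where H2-Aa was at 1.88 and H2-DMb1 at -2.52.

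Over both erythroid steps, CFUe vs KLS had all 6 members lower (19.1% of all probes lower), from H2-Ab1 at -1.54 ± 0.22 to H2-Aa at -5.48 ± 0.45 (SE). Cd74 was lower by 16.9-fold, H2-DMb1 by 8.21-fold, H2-DMa by 5.25-fold and Ciita by 4.55-fold. Without CFUe replicate 3 all 6 remained lower, and the Ciita call was lost after normexp (-0.86). Over both myeloid steps, GMP vs KLS had 4 of 6 lower (13.7% of all probes lower), with H2-Aa at -4.12 ± 0.45 (-2.41 after normexp) and Cd74 at -3.28 ± 0.19 (-3.04 after normexp), while H2-DMa was at -0.70 ± 0.21 and H2-DMb1 at 0.16 ± 0.29 (SE). The H2-DMa difference passed 2-fold under quantile scaling (-1.04), after normexp (-1.04) and in the deposited table (-1.09).

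The committed progenitors parted mainly in the H2-DM genes. In CFUe vs GMP, 3 of 6 members were lower (14.2% of all probes lower): H2-DMb1 by 3.19 ± 0.29 (SE, 9.16-fold, adjusted p = 7.38e-08, limma), H2-DMa by 1.69 ± 0.21 and H2-Aa by 1.36 ± 0.45. The H2-Aa groups overlapped, and that call was lost without CFUe replicate 1 (-0.94), CFUe replicate 2 (-1.02) or GMP replicate 3 (-1.24), with the slide as a fixed block (-1.24), with only these fractions fitted (adjusted p = 0.103) and after normexp (-0.23). Without CFUe replicate 3 the values were -3.69 for H2-DMb1, -1.90 for H2-DMa and -2.10 for H2-Aa, all called. Cd74 was at -0.80 ± 0.19, H2-Ab1 at 0.24 ± 0.22 and Ciita at 0.60 ± 0.32. Spike-in scaling, which moved the median probe by -1.38 here, gave 5 calls and turned H2-Ab1 to -1.13 (adjusted p = 0.00123) and Ciita to -0.77.

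The terminal steps raised the core genes. In Ter119 vs CFUe, 5 of 6 members were higher (29.2% of all probes higher). H2-Aa was up by 7.74 ± 0.45 (SE, adjusted p = 5.94e-11, limma), Cd74 by 6.65 ± 0.19, Ciita by 5.57 ± 0.32, H2-DMb1 by 3.74 ± 0.29 and H2-Ab1 by 3.49 ± 0.22. Without CFUe replicate 3 these values were 8.49, 6.78, 5.48, 4.23 and 3.73. H2-DMa was at 0.40 ± 0.21, not called, at 0.60 without CFUe replicate 3, and at -0.99 (adjusted p = 0.00469) with spike-in scaling, which moved the median probe by -1.38. Within the 1 slide that carried both fractions, H2-Aa differed by 8.57, Cd74 by 6.71 and H2-DMa by 0.83.

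In Mac1Gr1 vs GMP, 4 of 6 members were higher (29.1% of all probes higher) and 1 was lower (27.6% of all probes lower). H2-Aa rose by 5.41 ± 0.45, Cd74 by 5.14 ± 0.19 (SE, 35.3-fold, adjusted p = 1.97e-13, limma), Ciita by 4.74 ± 0.32 and H2-Ab1 by 2.76 ± 0.22. H2-DMa fell by 1.90 ± 0.21 (adjusted p = 2.7e-07), and H2-DMb1 was at -0.30 ± 0.29. Spike-in scaling, which moved the median probe of this comparison by -2.03, left H2-Ab1 at 0.73 and not called and took H2-DMb1 to -2.33, called. No slide carried both fractions.

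The third step differed between lineages for 4 of 6 members, where 55.0% of all probes did so. The erythroid minus the myeloid change was 4.04 ± 0.41 for H2-DMb1, 2.33 ± 0.63 for H2-Aa, 2.29 ± 0.29 for H2-DMa and 1.5 ± 0.26 for Cd74 (SE). H2-Ab1 (0.72 ± 0.31, adjusted p = 0.0573, limma) and Ciita (0.83 ± 0.45, adjusted p = 0.129) did not pass. H2-Ab1 passed without CFUe replicate 3 (0.96, adjusted p = 0.00862), where the other 5 kept their side of the threshold. With spike-in scaling both passed (1.38 and 1.48).

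The mature fractions were set against each other in Ter119 vs Mac1Gr1. Ciita was the 1 member called, 2.70-fold higher in Ter119 (1.43 ± 0.32, SE, adjusted p = 0.000793, limma), where 22.0% of all probes were higher. The differences of the other 5 ran from 0.60 to 0.98, under 2-fold, and that of H2-Aa did not pass the adjusted threshold. With a term for low Xist the H2-Aa difference was -0.1. That term is set only by CFUe and PreGM, the fractions where Xist split, and H2-Aa stood apart on CFUe replicate 3 (-4.38). It therefore cannot show what Xist level does to the difference between Ter119 and Mac1Gr1. The count of members called was 4 under quantile scaling, 5 after normexp and 0 with spike-in scaling, which moved the median probe by -0.72 and put Cd74 at -0.02 and H2-DMa at -0.12.

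The B cell, dendritic cell and T cell marker lists were higher in both mature fractions than in the progenitor fractions. The B cell list (9 genes) was well above background on every Ter119 array for 9 of 9 genes, with mean levels of 1.54 to 1.96, and for 8 of 9 in Mac1Gr1, at -0.39 to 0.24. It lay between -4.81 and -2.96 in the 5 progenitor fractions. Ms4a1, which encodes CD20, read 3.95, 4.35 and 3.90 in Ter119 and 2.28, 3.22 and 3.29 in Mac1Gr1. The dendritic cell list was -1.33 to -1.01 in Ter119 and -2.57 to -2.20 in Mac1Gr1, above every progenitor fraction, and Siglech of plasmacytoid dendritic cells read -0.88, -1.20 and -0.89 in Ter119, with no progenitor array well above background. Not all of that list rose: Flt3 had means of -1.01 in Ter119 and -2.18 in Mac1Gr1, against 2.08 in KLS and 0.77 in PreGM. Zbtb46 had its highest mean in CFUe (-3.44), and neither it nor Cd209a was well above background on any Mac1Gr1 array. The T cell list rose too (-0.80 to -0.68 and -2.01 to -1.48), though its gene Lck had its highest mean in KLS (1.14). The macrophage list was -0.73 to -0.72 in Ter119 and 0.27 to 0.53 in Mac1Gr1, beside 0.09 to 1.44 in KLS. The part of these cells in the rise of the class II genes was not tested.

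The members fell into a tight group and a loose pair across the 21 arrays. Cd74, H2-Aa, H2-Ab1 and Ciita correlated with each other at r = 0.91 to 0.97, over points that share their fractions and arrays. H2-DMb1 correlated with them at 0.50 to 0.72 and H2-DMa at -0.32 to -0.03, and the DM pair at 0.42. Other probes for H2-Aa, H2-Ab1 and H2-DMb1 had the same directions wherever the brightest probe was called.

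The genes most like the members were named by the correlation of each of 14306 genes with the mean of the z-scored members over the 21 arrays. The nearest 10 were Snn, Cd72, Thy1, S100a4, Rsph9, Camk2d, Phf11a, Cox6a2, Epha2 and Mmp11, at r = 0.961 for Snn to 0.919 for Mmp11. Cd72, a B cell receptor partner, had a KLS mean of 1.43, averaged -1.15 in PreMegE and -4.65 in CFUe, and stood at 2.42 for Ter119. Its PreGM mean was 0.18, with -1.37 for GMP and 0.60 for Mac1Gr1. S100a4, a calcium-binding protein of leukocytes, had 2.59, -0.59, -2.25 and 6.25 from KLS to Ter119 and 2.65, 1.16 and 4.91 from PreGM to Mac1Gr1. Both had lower means in PreMegE, CFUe and GMP than in KLS.

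Of 10 accessory genes of the pathway listed, 9 were tested, and H2-Ea matched no probe. In PreMegE vs KLS 3 were lower and none higher, beside 8.86% of all probes lower, with a list median of -1.43 against 0.13 over all probes. In GMP vs PreGM 3 were lower and none higher, beside 6.36% lower, but the list median equalled that of all probes (-0.02 against -0.02). In Ter119 vs CFUe all 9 were higher, beside 29.2% of all probes, with a median of 3.25 against 0.05. In Mac1Gr1 vs GMP 6 were higher, beside 29.1% of all probes, with a median of 2.60 against 0.17.

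H2-Oa and H2-Ob encode H2-O, the inhibitor of H2-DM. H2-Oa read 1.55, 1.58 and 1.89 in KLS, 2.57, 2.80 and 2.39 in PreMegE, -2.05, -2.09 and 0.15 in CFUe, while the Ter119 arrays gave 1.86, 2.22 and 1.68. Its myeloid levels were 1.48, 1.37 and 1.61 in PreGM, 0.19, 0.24 and -0.02 in GMP and -0.23, 0.45 and 0.51 in Mac1Gr1. PreMegE was its highest fraction, on every array, and CFUe its lowest mean. It fell by 3.92 ± 0.41 (SE) in CFUe vs PreMegE (adjusted p = 5.62e-07, limma), by 4.65 without CFUe replicate 3, and by 1.35 ± 0.41 in GMP vs PreGM.

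H2-Ob read -1.22, -0.84 and -0.83 in PreMegE, near its KLS mean of -1.03, and none of its CFUe arrays rose well above background. It was at least 13.7-fold lower in CFUe than in PreMegE (adjusted p = 4.89e-07, limma), where the bound sets the dim arrays at the lowest signal that counts as well above background. It fell by 2.69 ± 0.49 (SE) in GMP vs PreGM. Both H2-O genes were thus held in PreMegE, where Cd74 and H2-Aa were low, and dropped in CFUe, as the H2-DM genes did.

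Marchf1, a ubiquitin ligase that removes class II and CD86 from the surface, had means of -2.30 in KLS and -3.13 in PreGM and was not well above background on any PreMegE or CFUe array. It was at least 9.37-fold lower in PreMegE than in KLS and at least 125-fold higher in Ter119 than in CFUe, and it rose by 8.35 ± 0.25 (SE) in Mac1Gr1 vs GMP. Marchf8, a related ligase, rose instead along the erythroid side, from 0.74, 0.89 and 0.87 in PreMegE to 2.90, 2.82 and 2.85 in CFUe and 4.73, 5.25 and 5.13 in Ter119. Cd86, a costimulatory ligand, was at least 8.68-fold lower in PreMegE than in KLS and fell by 2.23 ± 0.60 in PreGM vs KLS, the 1 accessory call there, where its PreGM arrays read -3.67, -3.56 and -6.66. Without PreGM replicate 3, the dim array, it fell by 1.21 ± 0.38. Cd80, the related ligand, read 0.24, 0.30 and 0.27 in Mac1Gr1 and -1.54, -2.06 and -2.02 in Ter119, a difference of -2.15.

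H2-DMb2, another H2-DM beta gene beside H2-DMb1, was not well above background on any PreMegE array and was at least 2.04-fold lower there than in KLS (-4.46, -4.17 and -4.86). Its CFUe arrays read -3.29, -7.34 and -7.19, and replicate 1 alone was well above background behind its call as higher in CFUe than in PreMegE (adjusted p = 0.042, limma). It was at -1.42, -1.04 and -1.64 in Ter119 and at -2.41, -2.14 and -2.18 in Mac1Gr1, its highest fractions. H2-DMb1 and H2-DMb2 are close paralogues, and how far their probes share signal was not tested.

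**Figure D4:**
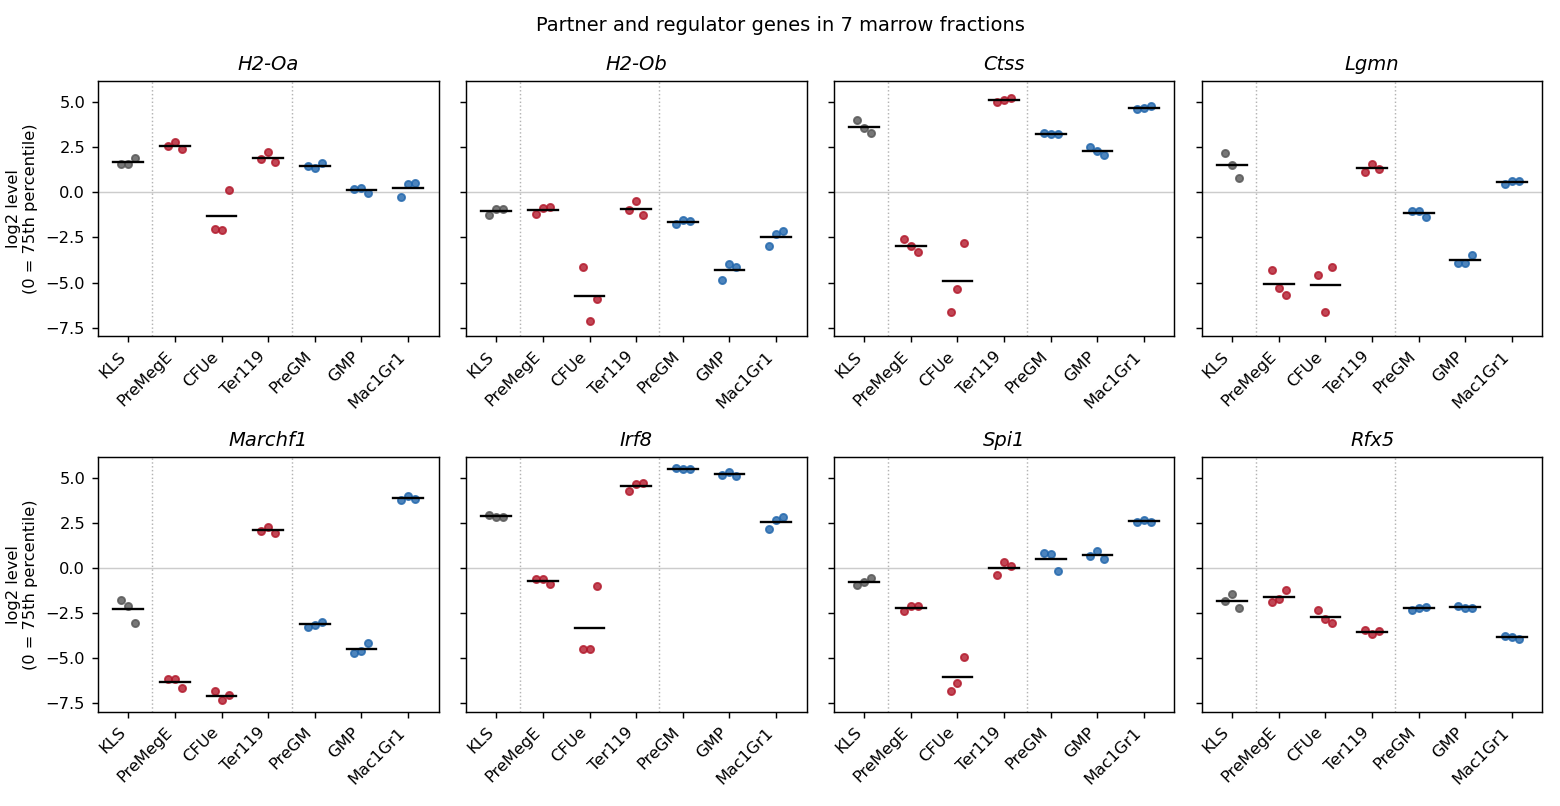
Level of 8 partner and regulator genes on each array with the fraction mean as a bar, as log2 signal relative to the 75th percentile of the array. H2-Oa and H2-Ob are high in PreMegE and low in CFUe, Ctss and Lgmn are low in both, and Irf8 lies above 5 in both PreGM and GMP.

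The 10 lysosomal processing genes were all tested and did not move as one. In PreMegE vs KLS 4 were lower and none higher (list median -0.73 against 0.13), beside 8.86% of all probes lower. For Ter119 vs CFUe 4 were higher and none lower (list median 0.68 against 0.05), near the 29.2% of all probes called higher. Ctss, the cathepsin that makes the last cut in the invariant chain, read 4.0, 3.57 and 3.27 in KLS, -2.60, -2.96 and -3.29 in PreMegE, -6.62, -5.36 and -2.80 in CFUe and 4.99, 5.12 and 5.23 in Ter119. It fell by 6.56 ± 0.58 (SE, adjusted p = 1.93e-07, limma) in PreMegE vs KLS. Unlike Cd74 it stayed up in GMP, at 2.49, 2.31 and 2.08 against 3.28, 3.23 and 3.24 in PreGM, a difference of -0.96 ± 0.58 that did not pass (adjusted p = 0.261). These arrays did not overlap, and the SE takes in the spread of the CFUe arrays.

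Ctsh, an aminopeptidase cathepsin, fell by 3.94 ± 0.16 (SE) in PreMegE vs KLS and rose by 1.42 ± 0.16 in GMP vs PreGM and by 7.72 ± 0.16 in Ter119 vs CFUe. Lgmn, the endopeptidase legumain, fell by 6.60 ± 0.49 in PreMegE vs KLS, by 2.66 ± 0.49 in PreGM vs KLS and by 2.61 ± 0.49 in GMP vs PreGM. Ctsb fell by 1.78 ± 0.18 in PreMegE vs KLS and rose by 1.27 ± 0.18 in GMP vs PreGM. Ifi30, the thiol reductase GILT, rose by 2.39 ± 0.13 in CFUe vs PreMegE, against the members called there. Ctsz, a carboxypeptidase, was highest in GMP at 5.20, 5.38 and 5.13. In GMP vs PreGM Ctsb and Ctsh were thus the processing genes called higher and Lgmn the one called lower, where 5 members fell.

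All 7 listed factors that bind the class II promoters were tested, and few changed by 2-fold. In GMP vs PreGM limma called none, with 1 at an unadjusted p under 0.05, and in PreMegE vs KLS it called none, with 3 at that level. In Ter119 vs CFUe 1 was higher and 2 lower, beside 29.2% and 28.0% of all probes. In Mac1Gr1 vs GMP 1 was higher and 1 lower, beside 29.1% and 27.6%. In CFUe vs PreMegE 2 were lower, Rfx5 by 1.12 (0.98 without CFUe replicate 3, then not called) and Nfya by 1.19 (1.29 without it), near the 14.7% of all probes called lower. These 2 genes encode the RFX5 and NF-YA subunits, and they were named after their values were seen.

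Of 12 listed regulators of Ciita, 11 were tested, and in PreMegE vs KLS 2 were higher and 4 lower, beside 3.55% and 8.86% of all probes (list median -0.06 against 0.13). Irf8, a factor of monocytes, dendritic cells and B cells, read 2.96, 2.82 and 2.82 in KLS, -0.61, -0.62 and -0.90 in PreMegE, -4.50, -4.48 and -1.0 in CFUe and 4.30, 4.67 and 4.74 in Ter119. It read 5.53, 5.51 and 5.51 in PreGM, 5.17, 5.31 and 5.11 in GMP and 2.15, 2.65 and 2.81 in Mac1Gr1. In GMP vs PreGM it was at -0.32 ± 0.60 (SE, adjusted p = 0.758, limma), where Ciita fell by 2.71, and in Mac1Gr1 vs GMP it fell by 2.66 ± 0.60, where Ciita rose by 4.74. The GMP and PreGM arrays of Irf8 did not overlap, and this SE takes in the spread of its CFUe arrays.

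Spi1, which encodes PU.1, fell by 1.43 ± 0.36 (SE) in PreMegE vs KLS and by 3.85 ± 0.36 in CFUe vs PreMegE, or by 4.4 without CFUe replicate 3. It rose by 1.24 ± 0.36 in PreGM vs KLS and was at 0.23 ± 0.36 in GMP vs PreGM (adjusted p = 0.711, limma). Irf4 and Ebf1, factors of B cells and other leukocytes, were well above background on no PreMegE array and were called higher in both terminal steps. Irf4 was at least 72.7-fold higher in Ter119 than in CFUe. In GMP each was well above background on 1 of 3 arrays, and the Mac1Gr1 means were -1.16 for Irf4 and -1.23 for Ebf1. Ebf1 is also on the B cell list above. Ifngr1 and Ifngr2, the chains of the interferon gamma receptor, were well above background in every fraction. Ifngr1 rose by 1.35 in PreMegE vs KLS and by 1.16 in GMP vs PreGM, the steps where Ciita fell. It was the 1 regulator called in GMP vs PreGM. Ifngr2 had a lower mean for PreMegE (-0.37) than for KLS (0.60), while PreGM (1.46) and GMP (1.65) were close. Both terminal steps raised the Ifngr2 mean, from 0.83 to 2.24 toward Ter119 and from 1.65 to 4.06 toward Mac1Gr1. Without CFUe replicate 3 the rise toward Ter119 was 1.09. The part of the receptor in the Ciita changes was not tested.

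Class I presentation genes are given for contrast. Of 14 listed genes, 13 were tested, and limma called none in PreMegE vs KLS, where the list median was 0.01 against 0.13 and 1 gene passed an unadjusted p under 0.05. In PreGM vs KLS it called none either, with 8 genes at that level. In GMP vs PreGM 1 was lower, beside 6.36% of all probes: Nlrc5, the class I counterpart of Ciita, by 1.18 ± 0.23 (SE, adjusted p = 0.000981, limma). Its arrays went from -1.53, -1.78 and -1.63 to -2.98, -2.74 and -2.77. B2m, the light chain of class I, had means between 6.34 and 7.38 in all 7 fractions. Psmb8, an immunoproteasome subunit, fell by 1.37 in CFUe vs PreMegE. In Mac1Gr1 vs GMP, where Cd74 rose by 5.14, 2 class I genes were higher and 5 lower, beside 29.1% and 27.6% of all probes (list median 0.16 against 0.17). The chaperones Calr and Canx fell by 3.91 and 2.97 there. The means of H2-D1 and Tapbp went up, from 5.88 to 7.79 and from 4.3 to 5.4.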

How the data were processed

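Total RNA from 7 sorted marrow fractions had been hybridised by the authors to 1-colour Agilent whole mouse arrays, read with Agilent Feature Extraction 10.7.1.1. The deposited scanner files give background-corrected processed signals as intensity per spot, and the deposited series table gives the authors' normalized values on a log2 scale. The members and gene lists were chosen with earlier results of these data known.

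Control spots and spots marked as outliers (80 to 283 per array) were left out, no spot was saturated, and spots of a probe were averaged. Intensity was taken as log2 minus each array's 75th percentile (196.0 to 1009.7 before the log). Probe accessions were given symbols through a RefSeq table of GRCm38.p6 (26690 of 41174 probes, 64.8%). The 29527 probes tested passed the scanner's background flag in all 3 replicates of 1 or more fractions. limma 3.58.1 in R 4.3.3 fitted a mean per fraction without a block over 21 arrays (14 residual degrees of freedom), two-sided, with Benjamini-Hochberg adjustment over all probes tested. The fits were also tested on simulated data. All members were named, partner genes mainly where called in at least 4 of 11 comparisons, and the 10 genes most correlated with the members. Exceptions to the partner rule include B2m, H2-D1 and Tapbp, besides those stated in the text. The 7 spike-in probes used of 10, normexp with an offset of 50, quantile scaling, the deposited table, slides (9, 1 scan day), probe choice, filters and leaving out each array were tried as alternatives. The number of arrays limits the precision. Replicate numbers showed no clear pairing of the samples: over 63 same-numbered pairs, deviations from fraction means correlated at -0.43 to 0.37, and 21 pairs were over 0.1. Pairs with different numbers were not compared, so whether arrays of a number share a batch or animal was not tested. Python 3.11.15 and matplotlib 3.10.9 drew the figures.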

Additional observations from a re-analysis of the deposited data

Results flagged for a closer look

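The difference between the erythroid and the myeloid change passed the limma interaction test (adjusted p under 0.05) for these members. At the second step (CFUe minus PreMegE against GMP minus PreGM) it was 3.51 for Cd74, 2.63 for H2-Aa, 1.82 for H2-Ab1 and 2.05 for Ciita on the log2 scale. It had the other sign for H2-DMa (-0.96) and H2-DMb1 (-2.03). At the third step (Ter119 minus CFUe against Mac1Gr1 minus GMP) it was 1.5 for Cd74, 2.33 for H2-Aa, 2.29 for H2-DMa and 4.04 for H2-DMb1. With 3 arrays per fraction, no fraction was large enough for a test of single outlying arrays. With spike-in scaling the second-step difference did not pass for H2-Aa (1.1), H2-Ab1 (0.29) or Ciita (0.52).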

How the results depend on the processing

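Of 1253 values recomputed under other settings, 1201 kept their side of the threshold, 19 lost a call, 32 gained one, and H2-Ab1 in CFUe vs GMP turned to a call of the other sign (-1.13 with spike-in scaling, where 5 members were called in place of 3). In all, 23 values had another sign than reported, 11 of them with spike-in scaling, and none of the reported values concerned was called. In Ter119 vs Mac1Gr1 the count of 1 became 4 with quantile scaling, 0 with spike-in scaling, 5 with normexp, 3 with the deposited table, 3 with the slide as a fixed block, 3 with it as a random block and 5 with no minimum fold, and 1 to 2 with 1 array left out (2 without Ter119 replicate 1 or 3, or Mac1Gr1 replicate 2 or 3, when H2-Ab1 joined). Leaving out 1 array gave 3 to 4 calls in PreMegE vs KLS, 3 to 4 in CFUe vs PreMegE and 2 to 3 in CFUe vs GMP. Spike-in scaling moved the median probe by -2.03 (Mac1Gr1 vs GMP) to 1.02 (GMP vs PreGM). The cause of these shifts was not tested. With the replicate block, PreMegE vs KLS kept 4 calls and no call of a member changed in any comparison. The term for low Xist and the other settings for the lineage differences, the mature fractions against KLS and Cd86 were added after seeing the data. H2-Aa in CFUe and Ciita in CFUe and GMP were not well above background on every array, so their lowest levels are the least certain.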
